A study of Homo sapiens with 8 samples.

Results

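The 10 genes described here encode feedback inhibitors of MAP kinase signalling: 3 Sprouty genes (SPRY1, SPRY2, SPRY4), 2 SPRED genes (SPRED1, SPRED2) and 5 dual-specificity phosphatase genes (DUSP1, DUSP2, DUSP4, DUSP6, DUSP10). They were taken by symbol from the gene-level tables of SupB15, an established human line of Philadelphia-chromosome-positive precursor B acute lymphoblastic leukaemia grown in IMDM with 20% serum. Each symbol had 1 Ensembl gene among the 16608 genes with a count in all 8 libraries, and all 10 passed the filter on low counts that left 16320 genes for testing. The 4 treatments, with 2 libraries each, were 1035 at 2 µM for 36 h followed by doxorubicin at 0.1 µM for 10 h, 1035 alone at 2 µM for 46 h, doxorubicin alone at 0.1 µM for 10 h, and the vehicle DMSO for 46 h. The series title calls the agent used beside doxorubicin an HDAC inhibitor, a compound that blocks the removal of acetyl groups from histones and other proteins; 1035 is known here by that code only. Doxorubicin intercalates into DNA and poisons topoisomerase II. The doxorubicin libraries had no DMSO control of 10 h, so doxorubicin against DMSO also compares a 10 h with a 46 h exposure. No DMSO is listed before doxorubicin in those libraries, so the combination against doxorubicin also compares a longer with a 10 h exposure. The combination against 1035 sets 36 h of 1035 before doxorubicin beside 46 h of 1035. The difference between the 1035 effects holds these limits too, and the part of exposure time was not tested. The sources used here do not say if the medium still held 1035 in the last 10 h of the combination.

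Receptor tyrosine kinases, and in Philadelphia-positive leukaemia the BCR-ABL1 fusion kinase, activate Ras, which switches on the kinases RAF, MEK and ERK in turn. Active ERK raises the transcription of several of its own inhibitors, so their mRNA is commonly used as a readout of pathway output. Sprouty proteins act near the receptor and Ras, SPRED proteins bind neurofibromin and bring it to Ras at the membrane, and dual-specificity phosphatases remove phosphate from the activated MAP kinases themselves. Only mRNA was measured here, neither phosphorylated ERK nor any protein.

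The total count over the shared genes was 11760542 to 18144670 per library. The marker check used 9 precursor B cell genes, among them PAX5 and DNTT, and each had at least 996 counts in each library. Their summed level was 2340 to 2390 CPM in the 4 libraries with 1035 and 3130 to 3350 CPM in the 4 without. CPM stands for counts scaled to a common depth by the total count of each library. The marker levels in this paragraph were scaled without TMM factors. The CPM values of the 10 genes and of the other pathway genes below were scaled with TMM factors. Of 5 myeloid markers, CSF1R and LYZ were measured and summed to 18.5 to 21.4 CPM with 1035 and 14.1 to 16.5 CPM without. Of 5 stromal markers, COL1A1 was measured, at 1.16 to 2.98 CPM with 1035 and 0.123 to 0.484 CPM without. The part of these shifts in the results below was not tested, and the 5 T cell and 4 erythroid markers had no value among the shared genes, so no level is given for them. In bulk RNA, fewer cells of a type and less RNA per cell cannot be told apart.

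Promoter windows were searched for 9 of the 10 genes, 14 windows in all, and 4 genes are shown: DUSP10 and SPRY4, with 2 of the 3 largest increases with 1035, DUSP6, the gene with the highest level, and DUSP1, the one that fell. Each window runs from 250 bases before to 50 bases after an annotated transcription start in RefSeq, build GRCh38.p14; coordinates of the deposited files, built on hg19, were not used. The DUSP10 window is chr1:221742040-221742339, the SPRY4 window chr5:142324198-142324497, the DUSP6 window chr12:89352452-89352751 and the DUSP1 window chr5:172771146-172771445, all on the minus strand. Of the 2 windows of DUSP10 the upstream one is shown. The sequences are written 5′ to 3′ in the direction of transcription, and capitals mark matches, on either strand, to the motifs searched.
DUSP10: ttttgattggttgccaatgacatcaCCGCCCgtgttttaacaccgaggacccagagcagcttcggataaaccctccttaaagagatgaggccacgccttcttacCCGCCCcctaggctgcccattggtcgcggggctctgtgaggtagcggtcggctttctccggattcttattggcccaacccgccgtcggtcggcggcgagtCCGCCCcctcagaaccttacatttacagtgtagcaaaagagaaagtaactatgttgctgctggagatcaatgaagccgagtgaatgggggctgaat
SPRY4: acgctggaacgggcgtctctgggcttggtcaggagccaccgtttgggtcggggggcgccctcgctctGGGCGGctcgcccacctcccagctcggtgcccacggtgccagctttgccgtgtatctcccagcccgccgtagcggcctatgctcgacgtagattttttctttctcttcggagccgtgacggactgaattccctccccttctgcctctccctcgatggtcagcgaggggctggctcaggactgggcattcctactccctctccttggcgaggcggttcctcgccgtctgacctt
DUSP6: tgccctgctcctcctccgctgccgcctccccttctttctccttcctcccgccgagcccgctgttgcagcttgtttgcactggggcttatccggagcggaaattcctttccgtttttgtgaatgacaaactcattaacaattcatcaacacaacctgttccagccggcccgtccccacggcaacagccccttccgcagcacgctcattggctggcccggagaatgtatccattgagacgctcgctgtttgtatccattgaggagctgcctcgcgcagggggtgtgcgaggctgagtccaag
DUSP1: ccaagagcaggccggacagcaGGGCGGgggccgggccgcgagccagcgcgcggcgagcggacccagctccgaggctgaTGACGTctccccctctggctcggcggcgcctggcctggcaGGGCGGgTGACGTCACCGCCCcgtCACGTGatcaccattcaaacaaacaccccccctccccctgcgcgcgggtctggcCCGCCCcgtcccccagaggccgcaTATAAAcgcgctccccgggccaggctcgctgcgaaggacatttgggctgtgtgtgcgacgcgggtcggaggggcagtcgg
The motifs searched were the cyclic AMP response element core TGACGT, the E-box CACGTG, the Sp1 box GGGCGG, the ETS site CCGGAAG, the AP-1 site TGANTCA, the TATA box TATAAA and the CArG box. Over all 35116 windows in the table, the Sp1 box occurred in 45.0%, the TATA box in 11.5%, the ETS site in 10.3%, the cyclic AMP response element core in 7.98%, the AP-1 site in 7.71%, the E-box in 7.26% and the CArG box in 1.29%. The DUSP1 window held 3 matches to TGACGT or its reverse complement, starting at positions -172, -125 and -123 from the annotated start, of which the last 2 overlap. It also held a CACGTG at -108, a TATAAA at -30 and 4 Sp1 boxes. The DUSP10 window held 3 Sp1 boxes, the SPRY4 window held 1, and the DUSP6 window held no match to the motifs searched. The DUSP1 window had 73.3% G and C and 36 CpG dinucleotides, against a median of 58.7% and 14 over all windows. Some genes that rose had like values: the DUSP2 window had 75.0% and 35 with an E-box at -113 and 3 Sp1 boxes, the SPRED1 window 76.3% and 32, and a window of SPRY2 71.0% and 30. Others that rose had lower values: SPRY4 65.0% and 26, DUSP6 58.3% and 19, and the upstream windows of SPRED2 60.0% and 23, DUSP10 55.0% and 19, and SPRY1 47.7% and 12. A window of SPRED2 held TGACGT or its reverse complement at position 29. Its other window held a TATA box at -31 and AP-1 sites at -6 and 34. The downstream window of SPRY1 held an ETS site at -67. A match describes the letters of a window only, and a window without one says nothing of the factors that act on the gene.

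With 1035 alone, 9 of the 10 genes rose against DMSO and DUSP1 fell (edgeR quasi-likelihood test, Benjamini-Hochberg adjusted over all 16320 genes at 0.05). In that comparison 49% of all genes passed, 24.2% higher and 24.8% lower, so a change as such was common and the direction was shared about evenly. The median log2 fold change was 0.58 over the 10 genes and 0.01 over all genes tested. After 1035 then doxorubicin, set against doxorubicin alone, the same count was reached, 9 higher and 1 lower, where 43.8% of all genes passed, 21.8% higher and 22% lower. Those 2 comparisons share no library, but 1 model fitted to all 8 libraries gave the spread for both, so their calls are not independent. For each of the 10 genes the 4 libraries with 1035 did not overlap the 4 without it, 9 lying above and DUSP1 below, whereas 24.5% of all genes lay wholly above and 24.7% wholly below.

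**Figure D1:**
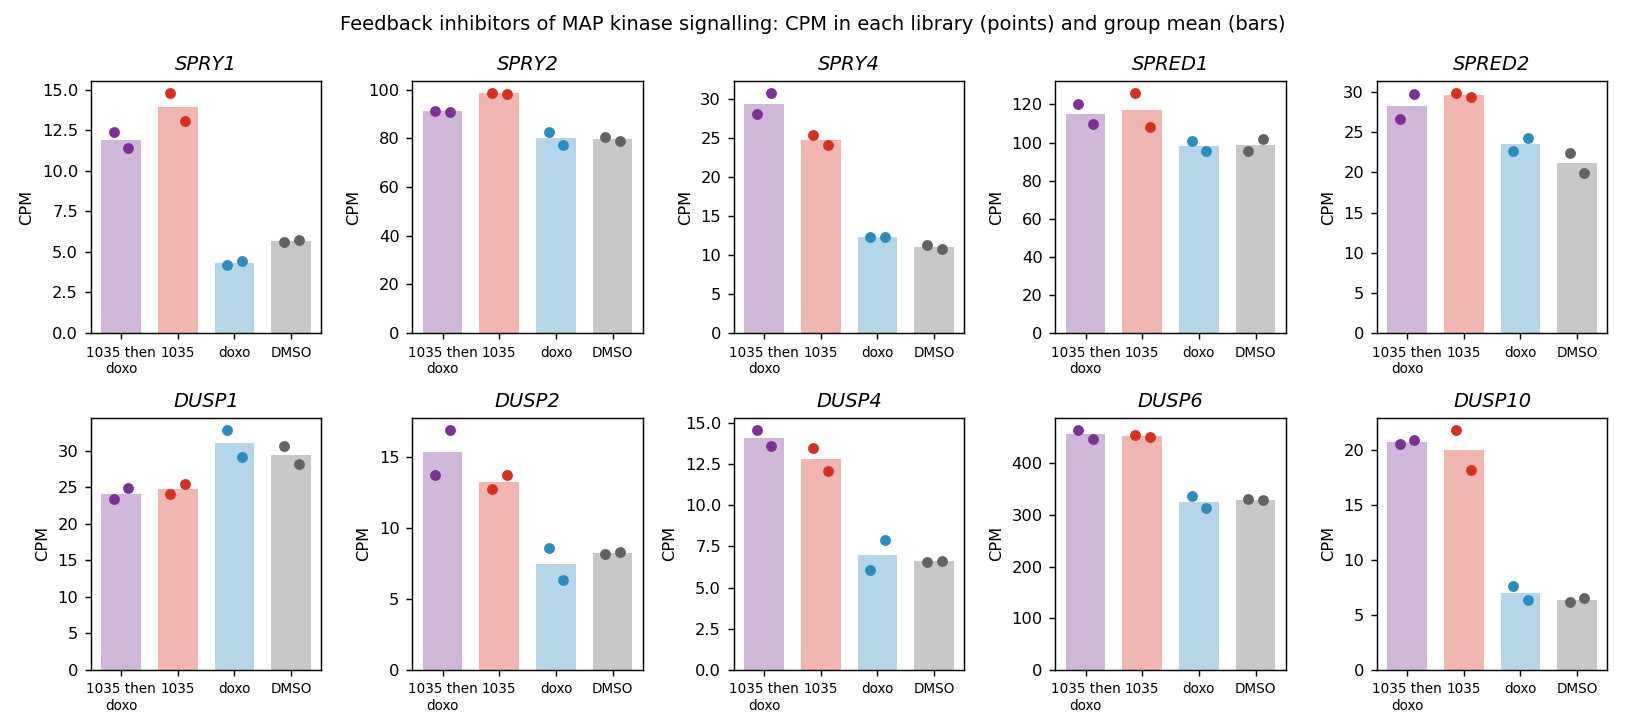
CPM of the 10 genes in each of the 8 libraries (points) with the mean of each treatment (bars), 1 panel a gene with its own axis from 0; doxo stands for doxorubicin. In 9 panels the 4 points with 1035 lie above the 4 points without it, and in the DUSP1 panel they lie below.

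Among the Sprouty genes, whose products restrain signalling from receptor tyrosine kinases to Ras and ERK, SPRY1 and SPRY4 more than doubled with 1035 and SPRY2 rose by less. SPRY1 (ENSG00000164056) had 12.4 and 11.4 CPM after 1035 then doxorubicin, 14.8 and 13.1 CPM with 1035, 4.2 and 4.44 CPM with doxorubicin, and 5.61 and 5.75 CPM with DMSO. SPRY4 (ENSG00000187678) had 28 and 30.7 CPM after 1035 then doxorubicin, 25.3 and 24.1 CPM with 1035, 12.3 and 12.3 CPM with doxorubicin, and 11.2 and 10.7 CPM with DMSO. For both genes each library with 1035 lay well above each library without it. With 1035 against DMSO, SPRY1 rose 2.45-fold (95% interval 2.00 to 3.01) and SPRY4 rose 2.25-fold (1.93 to 2.63), with adjusted p = 5.31e-10 and 7.23e-12 in edgeR. The combination against doxorubicin gave 2.77-fold for SPRY1 (2.21 to 3.46) and 2.38-fold for SPRY4 (2.05 to 2.77). These log2 fold changes stood above those of 94.4% and 93.5% of all genes in 1035 against DMSO, and above 97.5% and 96.2% in the combination against doxorubicin.

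SPRY2 (ENSG00000136158) had 91.2 and 91 CPM after 1035 then doxorubicin, 98.6 and 98.4 CPM with 1035, 82.7 and 77.4 CPM with doxorubicin, and 80.4 and 78.8 CPM with DMSO. Its libraries with and without 1035 were close to each other without overlapping. The log2 fold change was 0.31 ± 0.06 (SE) with 1035 against DMSO (adjusted p = 0.000103, edgeR) and 0.18 ± 0.07 in the combination against doxorubicin (adjusted p = 0.0186). The second of these calls was lost without doxorubicin replicate 2 (adjusted p = 0.0973), without either library of the combination (0.0766 and 0.0707) and in DESeq2 (0.066). It was also lost with 1035 replicate 2 and doxorubicin replicate 2 both left out (0.0872). In the authors' deposited table of that comparison SPRY2 had an adjusted p of 0.154.

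The SPRED genes, which act through neurofibromin to lower active Ras, rose by 0.23 to 0.49 on the log2 scale in both 1035 comparisons. SPRED1 (ENSG00000166068) had 120 and 110 CPM after 1035 then doxorubicin, 126 and 108 CPM with 1035, 101 and 95.6 CPM with doxorubicin, and 95.6 and 102 CPM with DMSO. The gap between the lowest library with 1035, at 108 CPM, and the highest without, at 102 CPM, was smaller than the spread within the 1035 pair. SPRED1 rose by a log2 fold change of 0.24 ± 0.07 (SE) with 1035 against DMSO (adjusted p = 0.00348, edgeR) and 0.23 ± 0.07 in the combination against doxorubicin (adjusted p = 0.00709). Without DMSO replicate 1 the first value was 0.20 (adjusted p = 0.0773), and without 1035 replicate 1 it was 0.12 (adjusted p = 0.21). The second call was lost without combination replicate 1, at 0.16 (adjusted p = 0.162), and the authors' deposited table gives it an adjusted p of 0.0557.

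SPRED2 (ENSG00000198369) had 26.7 and 29.8 CPM after 1035 then doxorubicin, 29.9 and 29.4 CPM with 1035, 22.7 and 24.3 CPM with doxorubicin, and 22.4 and 19.9 CPM with DMSO. The 4 libraries with 1035 lay above the 4 without. It rose by a log2 fold change of 0.49 ± 0.10 (SE) with 1035 against DMSO (adjusted p = 4.54e-05, edgeR) and 0.27 ± 0.10 in the combination against doxorubicin (adjusted p = 0.0219). The second call was lost without doxorubicin replicate 1 (adjusted p = 0.145), without combination replicate 2 (0.234) and in DESeq2 (0.13). In the authors' deposited table of the combination against doxorubicin its adjusted p was 0.223.

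DUSP6, the cytoplasmic phosphatase with a strong preference for ERK, was the most abundant of the 10 genes and rose in both 1035 comparisons. DUSP6 (ENSG00000139318) had 465 and 448 CPM after 1035 then doxorubicin, 454 and 451 CPM with 1035, 337 and 314 CPM with doxorubicin, and 331 and 328 CPM with DMSO. The lowest library with 1035, at 448 CPM, lay well above the highest without, at 337 CPM. Its log2 fold change was 0.46 ± 0.06 (SE) with 1035 against DMSO (adjusted p = 9.9e-09, edgeR) and 0.49 ± 0.06 in the combination against doxorubicin (adjusted p = 2.53e-09). In the GENCODE annotation 1875 exon bases of DUSP6 lie opposite an exon of the antisense gene AC024909.2, which has no value among the shared genes. The library kit marks strand, but the sources used here do not give the strand setting of the counting, and the share of antisense reads in the DUSP6 count is uncertain.

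The inducible nuclear phosphatases DUSP2 and DUSP4, which act on ERK and other MAP kinases, rose in both comparisons. DUSP2 (ENSG00000158050) had 13.7 and 16.9 CPM after 1035 then doxorubicin, 12.7 and 13.7 CPM with 1035, 8.56 and 6.3 CPM with doxorubicin, and 8.16 and 8.27 CPM with DMSO. DUSP4 (ENSG00000120875) had 14.6 and 13.6 CPM after 1035 then doxorubicin, 13.5 and 12.1 CPM with 1035, 6.05 and 7.92 CPM with doxorubicin, and 6.57 and 6.61 CPM with DMSO. For both genes the pairs with doxorubicin were the widest of those without 1035, and they still lay below the libraries with 1035. DUSP2 rose by a log2 fold change of 0.68 ± 0.14 (SE) with 1035 against DMSO (adjusted p = 0.00011, edgeR) and 1.01 ± 0.14 in the combination against doxorubicin (adjusted p = 1.67e-07). DUSP4 rose by 0.96 ± 0.14 and 1.04 ± 0.14 on the log2 scale in the same comparisons (adjusted p = 4.4e-07 and 7.98e-08, edgeR).

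DUSP10, a phosphatase that prefers JNK and p38 over ERK, showed the largest log2 fold change of the 10 genes in each of the 3 comparisons of libraries with 1035 against libraries without it. DUSP10 (ENSG00000143507) had 20.5 and 20.9 CPM after 1035 then doxorubicin, 21.8 and 18.1 CPM with 1035, 7.61 and 6.3 CPM with doxorubicin, and 6.18 and 6.55 CPM with DMSO. The lowest library with 1035 was more than double the highest without. Its log2 fold change was 1.65 ± 0.14 (SE) with 1035 against DMSO (adjusted p = 1.18e-13, edgeR), above 96.4% of all genes. It was 1.55 ± 0.13 in the combination against doxorubicin (adjusted p = 5.13e-13), above 97.7% of all genes.

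DUSP1, the immediate early phosphatase of p38, JNK and ERK, went the other way. DUSP1 (ENSG00000120129) had 23.4 and 24.9 CPM after 1035 then doxorubicin, 24.1 and 25.5 CPM with 1035, 32.9 and 29.2 CPM with doxorubicin, and 30.7 and 28.2 CPM with DMSO. The highest library with 1035, at 25.5 CPM, lay below the lowest without, at 28.2 CPM. DUSP1 fell by 0.25 on the log2 scale with 1035 against DMSO (SE 0.09, adjusted p = 0.0256, edgeR) and by 0.37 in the combination against doxorubicin (SE 0.10, adjusted p = 0.0012). The first call was lost without DMSO replicate 1 (adjusted p = 0.228), without 1035 replicate 1 (0.161), with only genes that averaged 50 or more normalised counts (0.0631) and in DESeq2 (0.136). The call against doxorubicin was kept under all 17 alternatives tried. The authors' deposited tables give DUSP1 an adjusted p of 0.0936 with 1035 against DMSO and 0.0582 in the combination against doxorubicin.

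**Figure D2:**
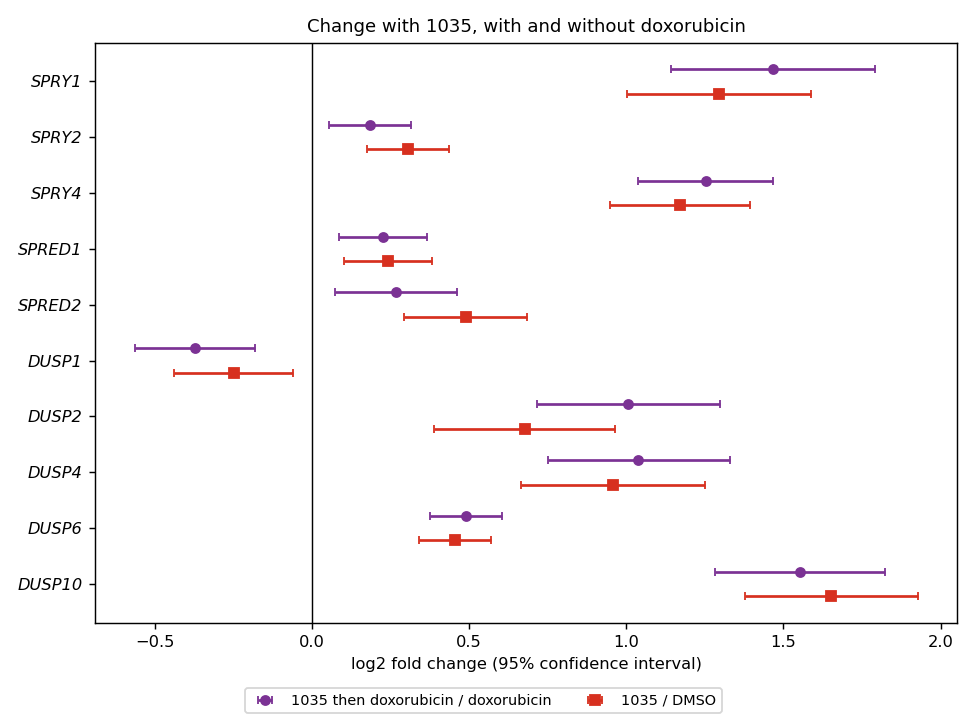
Log2 fold change of each gene with its 95% confidence interval for 1035 then doxorubicin over doxorubicin (circles) and 1035 over DMSO (squares), from edgeR; filled points passed at an adjusted p of 0.05. Of the 10 genes, 9 lie right of 0 in both comparisons, from 0.18 for SPRY2 to 1.65 for DUSP10, and DUSP1 lies left of 0 at -0.37 and -0.25.

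The combination against DMSO, which uses the same DMSO libraries as 1035 against DMSO, also had 9 of the 10 genes higher and DUSP1 lower, where 49.2% of all genes passed in edgeR, 24.5% higher and 24.7% lower. SPRY4 had a log2 fold change of 1.42 there and 1.17 with 1035 alone, DUSP10 had 1.70 and 1.65, and SPRY1 had 1.07 and 1.29. The values for DUSP2 were 0.89 and 0.68, for DUSP4 1.09 and 0.96, and for DUSP6 0.47 and 0.46. SPRED2 had 0.41 and 0.49, SPRED1 0.22 and 0.24, SPRY2 0.19 and 0.31, and DUSP1 -0.29 and -0.25. In the combination against DMSO the DUSP1 call (adjusted p = 0.0104) was lost without DMSO replicate 1 (0.139), without combination replicate 1 (0.118) and in DESeq2 (0.0705). The SPRED1 call (0.00716) was lost without DMSO replicate 1 (0.114) and without combination replicate 1 (0.159). The SPRY2 call (0.0115) was lost without DMSO replicate 2 (0.0958) and without either library of the combination (0.0535 and 0.0509).

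Doxorubicin at this dose and time changed none of the 10 genes detectably, whether or not 1035 came first. In the combination against 1035, 0 of 10 passed in edgeR, where 0.496% of all genes passed, and in doxorubicin against DMSO 0 of 10 passed, where 1.33% of all genes did. At an unadjusted p of 0.05 each comparison had 1 gene, SPRY4 in the combination against 1035 and SPRY1 in doxorubicin against DMSO. Of all genes, 6.8% and 13.3% reached that cut in the same comparisons. DESeq2 called 0 of the 10 in both. Log2 fold changes ran from -0.23 for SPRY1 to 0.25 for SPRY4 in the combination against 1035, and from -0.40 for SPRY1 to 0.16 for SPRY4 in doxorubicin against DMSO. The 95% intervals of the 10 genes lay between -0.49 and 0.48 in the combination against 1035 and between -0.75 and 0.46 in doxorubicin against DMSO. DUSP6 and SPRY2 were bounded most tightly. For DUSP6 the interval was -0.10 to 0.13 in the combination against 1035 and -0.14 to 0.10 in doxorubicin against DMSO. For SPRY2 the intervals were -0.24 to 0.02 and -0.12 to 0.14 in the same comparisons.

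The test of the difference between the 1035 effects, that with doxorubicin minus that without, passed for 0 of 10 genes in edgeR, where 0.0184% of all genes passed. None of the 10 reached an unadjusted p of 0.05, where 4.82% of all genes did, and DESeq2 called 0. The estimates ran from -0.22 for SPRED2 to 0.33 for DUSP2 on the log2 scale, and the 95% intervals reached from -0.50 to 0.74. For SPRED2 the interval was -0.50 to 0.05, beside an effect of 0.49 for 1035 alone, and for DUSP2 it was -0.08 to 0.74, beside an effect of 0.68. The intervals do not show that the effects were equal. The narrowest interval was that of DUSP6, at -0.13 to 0.20.

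**Figure D3:**
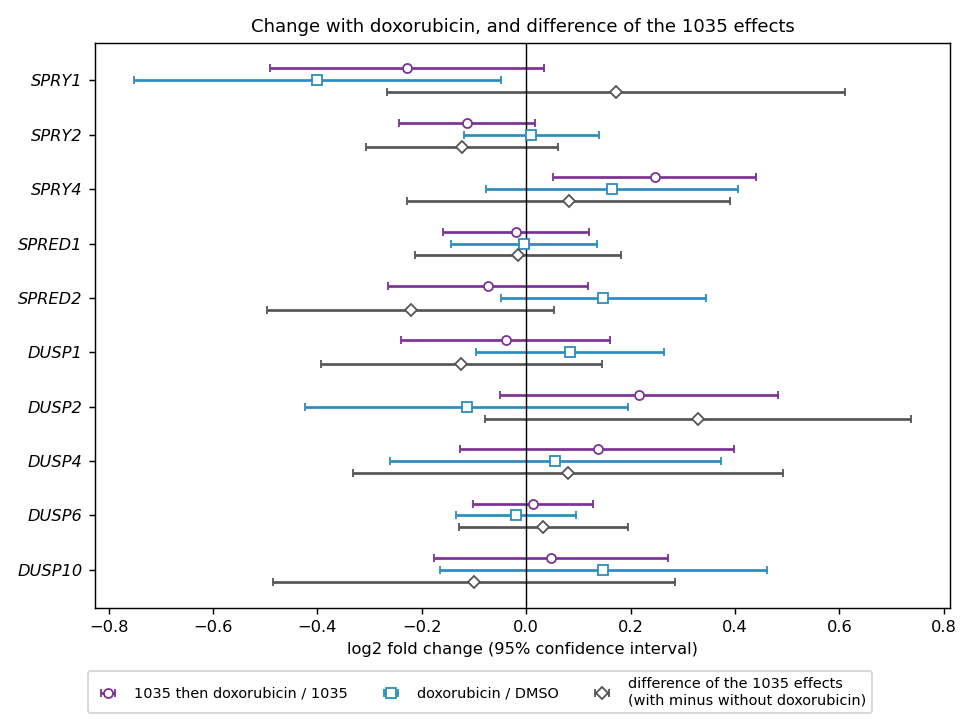
Log2 fold change of each gene with its 95% confidence interval for 1035 then doxorubicin over 1035 (circles) and doxorubicin over DMSO (squares), and the difference of the 1035 effects with minus without doxorubicin (diamonds), from edgeR; open points did not pass. The points of SPRY1 in doxorubicin over DMSO and SPRY4 in 1035 then doxorubicin over 1035 have intervals that leave out 0 before adjustment.

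Per length, the 10 genes ranged widely in level, and the log2 fold changes with 1035 were larger among the low genes than among the high ones. The order was not strict. DUSP6, with the highest level, had 0.46 with 1035 against DMSO, beside 0.31 for SPRY2 and 0.24 for SPRED1. Levels are given as FPKM, which is CPM per kilobase of gene length, from TMM-scaled counts and the gene lengths recovered from the deposited values. With 1035 the mean level was 97.6 ± 0.51 FPKM for DUSP6, 29.9 ± 0.04 for SPRY2, 14.1 ± 1.52 for SPRED1, 12.3 ± 0.49 for DUSP1 and 6.8 ± 0.36 for DUSP2 (SD, n = 2). SPRED2 at 5.75 FPKM and DUSP10 at 5.74 FPKM overlapped between libraries, and SPRY4 at 4.16 FPKM, SPRY1 at 3.51 FPKM and DUSP4 at 1.76 FPKM closed the order. After the combination the order was the same except that DUSP10, at 5.9 and 6.01 FPKM, stood above SPRED2, at 5.17 and 5.78 FPKM, in both libraries.

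Without 1035 the order differed. With DMSO, DUSP6 had 71.1 ± 0.45 FPKM, SPRY2 24.2 ± 0.35, DUSP1 14.6 ± 0.85 and SPRED1 11.9 ± 0.55 (SD, n = 2), so that DUSP1 stood above SPRED1. DUSP2 at 4.25 FPKM and SPRED2 at 4.1 FPKM overlapped between libraries, as did SPRY4 at 1.85 FPKM and DUSP10 at 1.83 FPKM, so DUSP10 was level with SPRY4 rather than above it. SPRY1 at 1.43 FPKM and DUSP4 at 0.907 FPKM came last. With doxorubicin the first 4 places were the same as with DMSO, and the libraries overlapped for the pairs SPRED2 and DUSP2, SPRY4 and DUSP10, and SPRY1 and DUSP4. The summed level of the 10 genes was 180 to 183 FPKM in the libraries with 1035 and 131 to 141 FPKM in those without. DUSP6 alone made up 53.4% to 55.1% of that sum with 1035 and 51.4% to 52.4% without. Over the 10 genes, Spearman's rho between the log2 fold change of 1035 against DMSO and the mean FPKM with doxorubicin, libraries not used in that fold change, was -0.81; the genes are not independent replicates.

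Among all genes the direction of the 1035 calls and the size of the change also varied with level. Of the 4325 genes with a mean of 5 to 30 CPM, a range that holds 7 of the 10, 31.1% were higher and 22.5% lower with 1035 against DMSO, with a median log2 fold change of 0.05. Of the 5575 genes from 30 to 150 CPM, the range of SPRY2 and SPRED1, 23% were higher and 36.2% lower. Of the 1569 genes above 150 CPM, the range of DUSP6, 19.7% were higher and 46.7% lower.

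**Figure D4:**
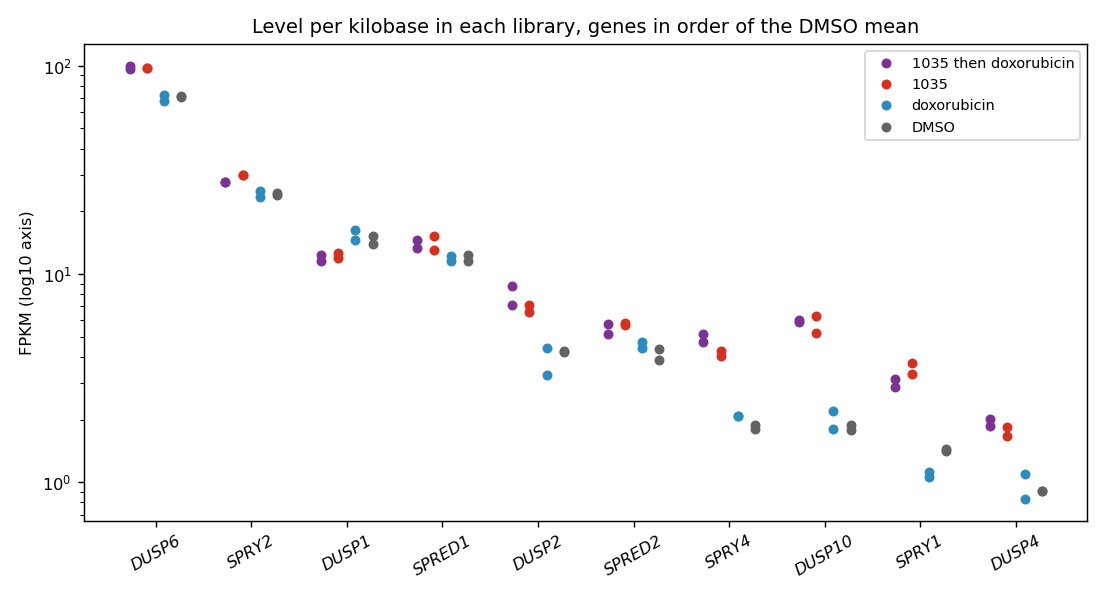
FPKM of each gene in each library on a log10 axis, genes ordered by their DMSO mean from high to low; the 4 columns of points of a gene are, from the left, 1035 then doxorubicin, 1035, doxorubicin and DMSO, with 2 libraries each. Levels with DMSO run from 71.1 FPKM for DUSP6 to 0.907 FPKM for DUSP4, and the points with 1035 stand farther from those without it for SPRY4, DUSP10, SPRY1 and DUSP4 than for SPRY2 and SPRED1.

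The rest of the pathway was read from 6 lists. The shares of all genes to set beside their counts are 24.2% higher and 24.8% lower with 1035 against DMSO. In the combination against doxorubicin they are 21.8% higher and 22% lower. Of 7 further Sprouty, SPRED and MAP kinase phosphatase genes, 3 were measured in all libraries and tested, and 0 passed with 1035 against DMSO in edgeR or DESeq2. At an unadjusted p of 0.05 in edgeR there was 1, where 54% of all genes reached it. DUSP7, another ERK phosphatase, stood at 0.17 on the log2 scale (adjusted p = 0.0894), DUSP16 at 0.18 (0.125) and SPRED3 at 1.10 (0.178). For DUSP7 the libraries read 45.3 and 47 CPM after the combination and 35.7 and 35.1 CPM with doxorubicin, a difference of 0.38 that passed (adjusted p = 0.000239, edgeR). With 1035 alone DUSP7 had 39.5 and 41.1 CPM, against 34 and 37.5 CPM with DMSO. With only genes that averaged 50 or more normalised counts, DUSP7 (adjusted p = 0.0237, edgeR) and DUSP16 (0.048) passed with 1035 against DMSO. SPRED3, which that filter removes, was near the floor, at 0.36 and 1.38 CPM with 1035 and 0.382 and 0.397 CPM with DMSO. Its log2 fold change without 1035 replicate 1 was 1.80 and rested on the 1 remaining library of 1035.

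The next list holds genes that ERK activity is known to induce, among them immediate early genes and ETS factors. Of 16 such genes tested, 10 rose with 1035 against DMSO, 1 fell and 5 did not pass, with a median log2 fold change of 0.54; 9 rose and 1 fell in the combination against doxorubicin. IER3, an immediate early gene, had 14.4 and 15.1 CPM after the combination, 11.7 and 13.1 CPM with 1035, 3.25 and 3.07 CPM with doxorubicin, and 2.36 and 2.25 CPM with DMSO. It rose by 2.42 ± 0.19 (SE) on the log2 scale with 1035 against DMSO (adjusted p = 8.63e-15, edgeR). FOS, a subunit of AP-1, and IER2 rose by 1.60 and 0.97, and ETV5, an ETS factor induced by ERK, rose by 0.59 ± 0.06 (adjusted p = 3.44e-10). MYC, which ERK stabilises at the protein level, was the 1 that fell, by 0.31 on the log2 scale with 1035 against DMSO (SE 0.06), at 185 and 179 CPM after the combination, 180 and 183 CPM with 1035, 228 and 214 CPM with doxorubicin and 225 and 225 CPM with DMSO. Among the genes of these lists, with all libraries, IER5 was the one that changed when doxorubicin followed 1035, at 74.5 and 77 CPM in the combination against 45.3 and 50 CPM with 1035 (log2 fold change 0.67, adjusted p = 0.00216, edgeR). That call was lost without 1035 replicate 1 (adjusted p = 0.0583) and without either library of the combination (0.0864 and 0.182). The number of ERK-responsive genes called higher there was 2 with only the groups compared, with all genes of the deposited table, without 1035 replicate 2 and without either doxorubicin library. It was 3 with 1035 replicate 2 and doxorubicin replicate 2 both left out, where IER2 had an adjusted p of 0.0239 against 0.288 with all libraries.

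Upstream of the kinases the changes ran in both directions. Of 16 receptor adaptors and Ras regulators tested, 8 rose and 3 fell with 1035 against DMSO, with a median of 0.18; 5 rose and 5 fell in the combination against doxorubicin. The Ras GTPase-activating genes RASA3 (0.77 ± 0.07) and RASA1 (0.52 ± 0.06), the ubiquitin ligase gene CBLB (0.82 ± 0.09) and the adaptor gene SHC1 (0.59 ± 0.07) rose on the log2 scale (SE). The Ras exchange factor genes RASGRP1 (-0.72 ± 0.09), RASGRP2 (-0.44 ± 0.10) and SOS2 (-0.22 ± 0.07) fell. The exchange factor genes did not move one way: RASGRP3, named after its values were seen, rose by 0.91 ± 0.17 (adjusted p = 1.69e-05, edgeR), and SOS1 stood at 0.19 ± 0.13 (adjusted p = 0.272). RASGRP3 had 10 and 7.68 CPM after the combination, 10.5 and 11.3 CPM with 1035, 6.49 and 8 CPM with doxorubicin, and 6.76 and 4.83 CPM with DMSO, and in the combination against doxorubicin, where the libraries overlapped, it did not pass (adjusted p = 0.127, edgeR). Its call with 1035 against DMSO was kept under all 17 alternatives, and it passed in the combination against doxorubicin without doxorubicin replicate 2 (0.0428) and with 1035 replicate 2 left out as well (0.0315). SOS1 rested on single libraries: it passed with 1035 against DMSO without 1035 replicate 2 (0.00847), without doxorubicin replicate 1 (0.0428) or 2 (0.0386), and with both second replicates left out (0.000197), and in the combination against doxorubicin, at -0.24, without doxorubicin replicate 1 (0.0387). RASGRP1 had 27.7 and 28 CPM after the combination, 25.6 and 24.5 CPM with 1035, 41.4 and 44.8 CPM with doxorubicin, and 38.1 and 44.8 CPM with DMSO. The SOS2 call was lost without DMSO replicate 1 (adjusted p = 0.114, edgeR). In the combination against doxorubicin the 5 lower calls became 2 without combination replicate 1 and 3 in DESeq2.

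Of 14 genes of Ras, RAF, MEK, ERK and their scaffolds, 5 rose and 4 fell with 1035 against DMSO, where 24.2% of all genes were higher and 24.8% lower. Their median log2 fold change was 0.04. In the combination against doxorubicin 5 rose and 5 fell. The scaffold genes KSR1 (0.92 ± 0.12) and KSR2 (1.19 ± 0.20) and MAPK3, which encodes ERK1 (0.51 ± 0.11), rose with 1035 against DMSO on the log2 scale (SE). KSR2 did not pass in the combination against doxorubicin (0.44 ± 0.18, adjusted p = 0.0601, edgeR). Its libraries overlapped there, at 12.9 and 11.1 CPM after the combination and 7.05 and 11.2 CPM with doxorubicin. ARAF (-0.54 ± 0.09), NRAS (-0.23 ± 0.06) and HRAS (-0.35 ± 0.11) fell with 1035 against DMSO. ARAF had 33.9 and 33.2 CPM after the combination, 31.1 and 34.5 CPM with 1035, 49.8 and 47.3 CPM with doxorubicin, and 50 and 44.9 CPM with DMSO. The HRAS call was lost without DMSO replicate 1 (adjusted p = 0.168, edgeR, log2 fold change -0.24), without 1035 replicate 1 (0.195, -0.22) and in DESeq2 (0.0746). In the combination against doxorubicin the 5 lower calls became 3 without combination replicate 1, 2 without combination replicate 2 and 3 in DESeq2.

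Downstream of ERK, 5 of 11 effector kinase, ternary complex factor and SRF genes rose with 1035 against DMSO, 1 fell and 5 did not pass. RPS6KA3 (0.52 ± 0.06), which encodes the ERK-activated kinase RSK2, MKNK2 (0.48 ± 0.06) and MKNK1 (0.32 ± 0.09), which encode kinases of eIF4E, and ELK3 (0.27 ± 0.08) rose on the log2 scale (SE), and SRF (-0.34 ± 0.08) fell. Without DMSO replicate 1 the 5 higher calls became 3, with ELK3 at an adjusted p of 0.0732 in edgeR. With 1035 replicate 2 and doxorubicin replicate 2 both left out, the lower calls were 2. In the combination against doxorubicin 3 rose and 2 fell, and ELK3 did not pass (0.18 ± 0.08, adjusted p = 0.052, edgeR). Those counts became 6 and 1 for genes that averaged 50 or more normalised counts, and the lower count was 1 without doxorubicin replicate 2, without either library of the combination, and with 1035 replicate 2 and doxorubicin replicate 2 both left out.

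For the parallel branches that DUSP10 and DUSP1 act on, 2 of 10 JNK and p38 kinase genes rose with 1035 against DMSO, 1 fell and 7 did not pass. Those counts are no larger a share than the 24.2% higher and 24.8% lower of all genes. MAPK11, which encodes p38 beta, had 25.5 and 25.1 CPM after the combination, 21.1 and 22.9 CPM with 1035, 11.3 and 10.6 CPM with doxorubicin, and 10.1 and 11.2 CPM with DMSO. It rose by 1.04 ± 0.11 (SE) on the log2 scale (adjusted p = 3.16e-10, edgeR), while MAP2K3, a kinase of p38, rose by 0.38 ± 0.09 and MAP2K7, a kinase of JNK, fell by 0.42. MAP2K3 did not pass in the combination against doxorubicin (0.17 ± 0.09, adjusted p = 0.122, edgeR). In the combination against doxorubicin 1 rose and 1 fell; the higher count was 2 without 1035 replicate 1, 1035 replicate 2 or doxorubicin replicate 1, and 3 without doxorubicin replicate 2, with 1035 replicate 2 and doxorubicin replicate 2 both left out, or for genes that averaged 50 or more normalised counts. The lower call there, MAP2K7, was lost without doxorubicin replicate 2 (adjusted p = 0.0512). In doxorubicin against DMSO and in the difference of the 1035 effects, 0 of the 70 genes tested in the 6 lists passed in edgeR or DESeq2. At an unadjusted p of 0.05 in edgeR there were 10 in doxorubicin against DMSO and 4 in the difference, where 13.3% and 4.82% of all genes reached it.

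**Figure D5:**
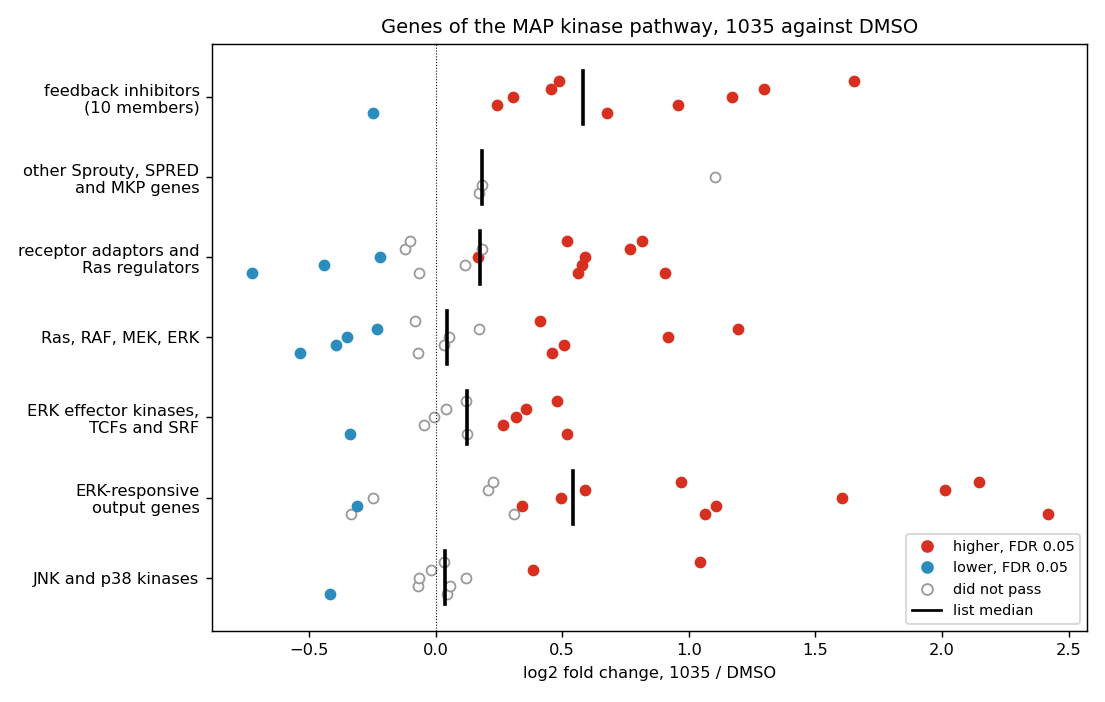
Log2 fold change of 1035 over DMSO for the 10 feedback inhibitors and for 6 lists of other pathway genes, 1 point a gene, with the list median as a bar; points are spread vertically for legibility, and MKP stands for MAP kinase phosphatase. The median is 0.58 for the feedback inhibitors and 0.54 for the ERK-responsive genes, and between 0.04 and 0.18 for the other 5 lists.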

How the data were processed

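Total RNA of 8 SupB15 libraries was prepared with a stranded, rRNA-depleted kit and sequenced as 50-base single reads, per the labels' protocols. Per the submitters' processing notes, Novoalign 2.08.01, DESeq2 1.4.5 and hg19 were used; the sources used here do not give the counter, annotation or strand setting. The authors deposited 4 tables of raw counts and FPKM per gene, with their log2 fold changes and adjusted p-values. Counts were joined by Ensembl gene (16608 of 17849 genes in all 8 libraries; 132880 counts held by 2 tables were equal, 0 differed), filtered with filterByExpr and tested with edgeR 4.0.16 (R 4.3.3; TMM, robust quasi-likelihood F-test, 4 group means, 4 residual degrees of freedom), adjusted by Benjamini-Hochberg over 16320 genes. The common biological coefficient of variation was 4.57%. DESeq2 1.42.0 was an alternative. The analysis was tested on simulated data. The labels call the samples of a treatment independent without saying that they came from separate cultures, so p-values measure only the spread between these samples. Replicate pairs differed beyond sampling noise (chi-square per degree of freedom 1.78 to 4.55). All 10 inhibitors were named; of each other list, up to 4 called genes per direction with the smallest p were named in 1035 against DMSO, and some of these are not reported here. The members and lists were chosen with earlier results of these data known.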

Additional observations from a re-analysis of the deposited data

How the results depend on the processing

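Under the alternatives (DESeq2 size factors in edgeR, no filter on low counts, genes that averaged 50 or more normalised counts, DESeq2, no robust option, only the groups compared, the replicate number as a block, all genes of each deposited table, each library left out in turn, and 1035 replicate 2 with doxorubicin replicate 2 left out), SPRY1, SPRY4, DUSP2, DUSP4, DUSP6 and DUSP10 kept their calls in the 3 comparisons of libraries with 1035 against libraries without it. No called value reversed. The number of inhibitors called lower was 0 with 1035 against DMSO for a mean count of at least 50 and in DESeq2, and 0 in DESeq2 for the combination against DMSO; leaving out 1 library gave 0 to 1 in both. None of the 10 was called under any alternative in doxorubicin against DMSO, the combination against 1035 or the difference of the 1035 effects.

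Over all genes, doxorubicin against DMSO called 217, with 134 for only the groups compared, 130 for all genes of the deposited table, and 33 to 1180 with 1 library left out. The highest was without doxorubicin replicate 1; it was 33 and 65 without DMSO replicates 1 and 2, 98 without doxorubicin replicate 2 and 116 without either library of the combination. The combination against 1035 called 81, with 151 for only the groups compared, 151 for all genes of the table, and 30 to 143 with 1 library left out, being 143 without either doxorubicin library, 45 without 1035 replicate 2, and 50 and 30 without combination replicates 1 and 2. The difference of the 1035 effects called 3, with 16 under the replicate block, 6 without 1035 replicate 2 and doxorubicin replicate 2, and 1 to 239 with 1 library left out (239 without doxorubicin replicate 1, 6 without 1035 replicate 1, 1 without DMSO replicate 2). The cause was not tested.

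The replicate numbers showed no sign of pairing: correlations of replicate differences between treatments ran from -0.085 to 0.096 over 11469 genes. With 2 libraries a treatment, these values cannot show that the samples were unpaired. The replicate block changed no call of the 10 inhibitors. Depth limits SPRY1, DUSP2, DUSP4 and DUSP10 most, with 55 to 153 counts a library without 1035.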
